A study of Mus musculus with 2 samples.

Results

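The junctional adhesion molecule (JAM) family was read in J-RGCs, the retinal ganglion cell type that is named for its leading member, Jam2 (JAM-B). The 5 genes were chosen by symbol: Jam2, F11r (JAM-A), Jam3 (JAM-C), Esam (endothelial cell-selective adhesion molecule) and Cxadr (the coxsackievirus and adenovirus receptor). All 5 were among the 24015 gene symbols listed in each library. The data hold 1 group of 2 libraries, A and B, from mouse retina at postnatal day 6. They were marked with green fluorescent protein by a transgene specific to J-RGCs, and were purified on magnetic beads and by flow sorting. Each library pooled 5 to 6 animals of a different litter, so differences between animals are averaged within it. Library A held 7916204 gene counts and B 13744313. Strain, sex and the promoter of the transgene are not stated in the labels. No other sorted cell type, age or treatment was included, so the comparisons lie between genes within each library and between the libraries.

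JAM proteins are single-pass membrane proteins of the immunoglobulin superfamily with a pair of immunoglobulin domains outside the cell and a short tail that binds PDZ-domain scaffolds inside it. JAM-B and JAM-C bind each other across cell contacts, and JAM-B is also linked to integrin alpha4 beta1, which places the family at tight junctions, at vessel walls and on leukocytes. In the retina JAM-B is known as the marker of a ganglion cell type with asymmetric dendrites that point ventrally. Cxadr and Esam belong to the same wider group of adhesion molecules but carry a different tail.

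The end of the coding sequence is given here because the partners described below bind the tail. The last 30 coding bases are printed 5′ to 3′ from GENCODE M21 (GRCm38) transcripts, with the last 4 codons before the stop codon in capitals.
Jam2: ttcaagcacacaaaaTCCTTTATAATTtaa
Jam3: ttcagacacaaatcgTCCTTTGTTATCtga
F11r: ttcaaacagacctcgTCGTTCCTGGTGtga
Esam: gcacagagtcaggctGGGTCTCTTGTGtga
Cxadr, longer transcript: gcacagagcaaggacGGGTCTATAGTAtag
Cxadr, shorter transcript: tacaagaccgatggcATTACAGTGGTAtaa
Jam2 and Jam3 had 9 of the 12 capital bases in common, and Jam2 and F11r had 6. Esam and the longer Cxadr transcript also had 9 in common, whereas Jam2 and Esam had 4. F11r had 7 in common with Esam and 6 with Jam3, and Jam2 had 6 with the longer Cxadr transcript. These base counts alone therefore do not separate the JAM tails from those of Esam and Cxadr. The leading capital codons do: TCC TTT in Jam2 and Jam3 and TCG TTC in F11r code for serine and phenylalanine. In Esam and the longer Cxadr transcript they are GGG TCT, for glycine and serine. The shorter Cxadr transcript, with another last exon, had 5 of 12 in common with the longer. The deposited counts are per gene and do not say which end of Cxadr was read.

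By reads and per length Jam2 was the most abundant member, Cxadr came next, and Jam3, F11r and Esam were scarce. Levels are counts scaled to 1000000 gene counts of a library (CPM), and detection was set at 1 CPM or more in A and in B. By that rule 3 of the 5 members were detected (Jam2, Cxadr and Jam3), beside 46.8% of all genes listed. Above 100 CPM in both libraries stood 2 members, Jam2 and Cxadr, beside 6.53% of all genes.

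Jam2 had 18559 counts in library A and 16536 in library B. These are 2344 CPM in A, with a 95% Poisson interval of 2311 to 2378, and 1203 CPM in B, with an interval of 1185 to 1222. By CPM, which is not corrected for length, Jam2 ranked 36 of all genes in A and 79 in B. Its mean was 1774 ± 807 CPM (SD, n = 2), above 99.8% of the genes listed. The type is defined by this gene, so its level describes the sort and is not independent evidence of it. Such intervals cover counting error only, since amplified reads carry no molecular identifiers.

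Cxadr, an adhesion molecule of developing neurons and of cardiac and epithelial junctions, had 1777 and 4108 counts in A and B. That was 224 CPM in A, at rank 860, and 299 CPM in B, at rank 616. Its mean of 262 ± 52.6 CPM (SD, n = 2) lay above 97.0% of the genes listed on the same scale. In both libraries, by CPM and per length, it was below Jam2 and above the other 3 members.

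Jam3, the main binding partner of JAM-B on opposing cells, had 61 counts in A and 129 in B. These gave 7.71 CPM in A (interval 5.89 to 9.90) and 9.39 CPM in B (interval 7.84 to 11.2), so the libraries overlapped within counting error. The mean was 8.55 ± 1.19 CPM (SD, n = 2).

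F11r, the JAM of epithelia, endothelium and blood cells, had 7 counts in A and 47 in B. It was at 0.884 CPM in A (interval 0.356 to 1.82) and 3.42 CPM in B (interval 2.51 to 4.55), so by CPM it passed the detection limit in B only, whereas with TMM scaling it passed in both libraries and 4 members were detected. Esam, known from endothelium and platelets, had 4 counts in A and 2 in B. That is 0.505 CPM in A (interval 0.138 to 1.29) and 0.146 CPM in B (interval 0.0176 to 0.526), where a count of 0 would still allow 0.379 and 0.218 CPM. In B Esam thus lay under that limit.

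**Figure D1:**
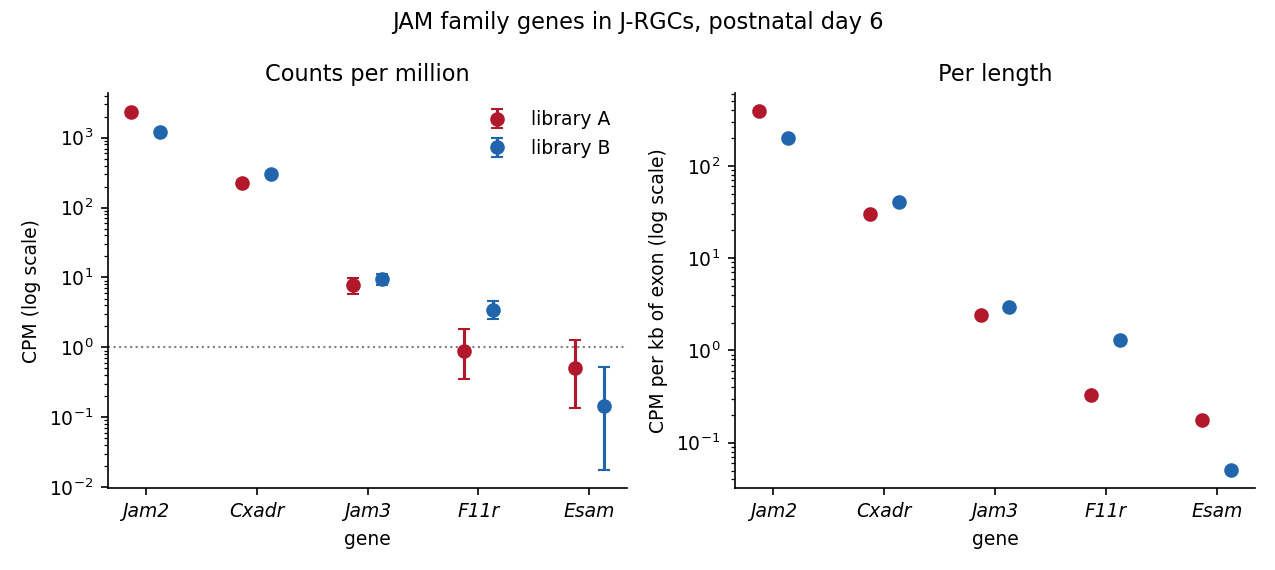
Levels of the 5 genes in libraries A (red, left of each pair) and B (blue), as CPM with 95% Poisson intervals for counting error (left panel, dotted line at 1 CPM) and as CPM per kb of exon (right panel), both on log axes. Jam2 sits above 1000 CPM in both libraries, Cxadr between 224 and 299 CPM, and Jam3, F11r and Esam under 10 CPM.

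Of the reads on the family, Jam2 took 90.9% in A (exact binomial 95% interval 90.5 to 91.3, of 20408 counts) and 79.4% in B (78.9 to 80.0, of 20822 counts). Cxadr took 8.71% in A and 19.7% in B. Jam3, F11r and Esam shared the rest, with Jam3 at 0.299% in A and 0.620% in B. The share of Jam2 differed between the libraries by more than counting error, while its place at the top did not change.

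To compare levels between genes, CPM was divided by length, giving CPM per kb of summed exon length from GENCODE M21 (6045 bases for Jam2, 7400 for Cxadr, 3200 for Jam3, 2663 for F11r and 2867 for Esam). On this scale Jam2 averaged 293 ± 134 CPM per kb, Cxadr 35.4 ± 7.11, Jam3 2.67 ± 0.371, F11r 0.808 ± 0.673 and Esam 0.113 ± 0.0887 (SD, n = 2 each). Per kb, Jam2 ranked 41 in A and 89 in B, and 52 genes had a higher mean. The order of the 5 genes was the same in both libraries and with or without the length correction.

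The ratio of 2 members was taken within each library and averaged, with a 95% interval from counting error and the trended dispersion of an edgeR fit over all genes. Jam2 over Cxadr was 7.94-fold per kb, with an interval of 2.93 to 21.5, at 12.8-fold in A and 4.93-fold in B. Jam2 over Jam3, the RNA of JAM-B against that of its partner in the same libraries, was 104-fold (34.2 to 316). It was 160-fold in A and 67.6-fold in B. Jam2 over F11r was 409-fold (134 to 1245), and Jam2 over Esam was 2477-fold (695 to 8835), a value that rests on 6 Esam counts in all. All 4 of these intervals excluded 1, in each library alone and under every alternative tried.

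Lower in the family the steps were less firm. Jam3 over Cxadr was 0.0764-fold (0.0265 to 0.220) and nearly equal in the libraries, at 0.0800-fold in A and 0.0729-fold in B. F11r over Jam3 was 0.254-fold (0.0789 to 0.819), and 0.147-fold in A against 0.441-fold in B. F11r over Esam was 6.06-fold (1.62 to 22.7), but 1.79-fold in A and 20.5-fold in B. Jam3 over Esam was 23.8-fold (6.36 to 89.3). By these intervals all 10 pairs were separated. Neither F11r nor Esam passed the expression filter of the fit, so their dispersion was taken from its low end. With the dispersion of a fit without that filter the intervals of F11r over Jam3 and of F11r over Esam held 1, and with DESeq2's dispersion that of Jam3 over Esam did too. The order of Jam3, F11r and Esam is therefore not settled by 2 libraries.

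**Figure D2:**
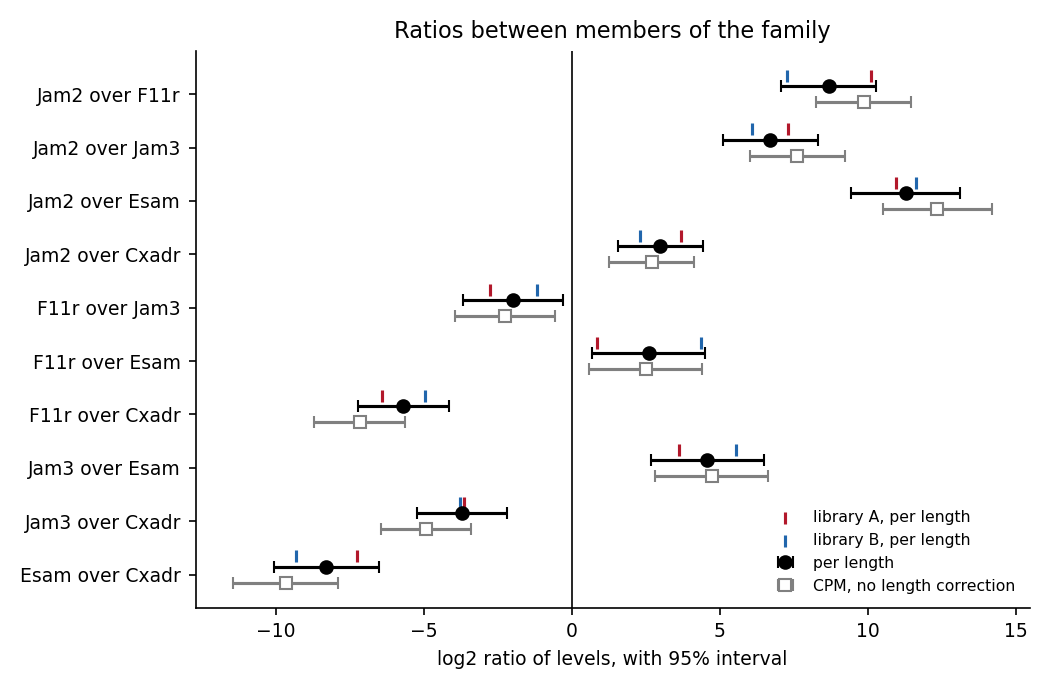
Log2 ratios of the 10 pairs of genes (rows) per length (black, with 95% interval) and without length correction (grey), with ticks for libraries A (red) and B (blue). The 4 ratios of Jam2 lie to the right of 0 throughout, and the pairs closest to 0 are F11r over Jam3 and F11r over Esam.

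Jam2 had no long stretch of sequence in common with its relatives. The longest exact run that its coding sequence had in common with F11r or Jam3 was 11 bases, and with Esam or Cxadr 10 bases. None of the 4321 windows of 50 bases in the Jam2 transcript occurred in a transcript of another gene. Windows found in another gene made up 4.83% of the longer and 17.1% of the shorter Cxadr transcript, all from Btg3, 18.8% of Jam3, all from Gm48796, 0.932% of F11r and 0% of Esam. Btg3 and Gm48796 lie on the opposite strand to Cxadr and Jam3 and overlap their exons by 695 and 1159 bases. Reads there can be lost or misassigned where strand is not used, and the sources used here do not say whether it was. Btg3 was listed at 0 counts in both libraries. Gm48796 was not among the symbols listed, so Jam3 could gain reads from it but not lose reads to it. The genes on either side of Jam2, Mrpl39 (6.70 CPM in A, 19.4 in B) and Atp5j (111 and 200 CPM), had fewer counts than Jam2 and, unlike it, were higher in B.

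The genes with the levels most like those of Jam2 included a general ganglion cell gene. Likeness was the distance between log2 CPM per kb in the 2 libraries, over 13633 genes with a count in each. The nearest was Ina, the neuronal intermediate filament alpha-internexin, at 451 CPM per kb in A and 194 in B (distance 0.222). Capns1 (277 and 186), a calpain subunit, Marcks (383 and 281), an actin-regulating membrane protein, Slc17a6 (321 and 266), the vesicular glutamate transporter of ganglion cells, and Npm1 (361 and 284), a nucleolar protein, came next. With 2 libraries such likeness is one of level only.

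Jam2 differed between the libraries in the opposite direction to Cxadr. Jam2 was 1.95-fold higher in A than in B (95% counting interval 1.91 to 1.99), a log2 ratio of 0.96. Cxadr was 0.751-fold (0.710 to 0.794), Jam3 0.821-fold (0.595 to 1.12), F11r 0.259-fold (0.0986 to 0.576) and Esam 3.47-fold (0.498 to 38.4). An exact binomial test, two-sided, was run on each gene with at least 10 counts in all, and a gene was called at a Benjamini-Hochberg adjusted p under 0.05 where the libraries also differed 2-fold or more. Of the 4 members tested 1 was called, F11r (adjusted p = 0.00036), beside 44.3% of all 14107 genes tested, or 33.4% counting only genes lower in A, so such a call is common here. The test compares these libraries and not conditions. Jam2 and Cxadr passed the p limit but not the fold limit, and with no fold limit 3 of the 4 were called, beside 77.8% of all genes. TMM scaling moves every log2 ratio of A over B by 0.45, which puts Jam2 at 1.41 and called, Cxadr at 0.04 and Jam3 at 0.17, so the directions of Cxadr and Jam3 depend on the scaling. By edgeR's exact test with the trended dispersion none of the 4 was called (adjusted p = 0.82 for Jam2 and 0.53 for F11r). None had an unadjusted p under 0.05, and 1.84% of all genes were called. That dispersion was itself estimated from the differences between A and B. Few calls were thus built into the test, and it cannot decide whether a member differs.

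Most abundant genes lay within 2-fold between the libraries by CPM, as Jam2 did. Of the 1996 genes with a mean of at least 100 CPM, 1657 lay within 2-fold. In the direction of Jam2, 249 genes, or 12.5%, were higher in A by at least as much. The median log2 ratio of A over B among the 1996 genes was -0.20, toward B. By CPM 10 of 12 ganglion cell markers were lower in A than in B, among them Pou4f2 at 486 CPM in A and 1011 CPM in B. Most genes went the same way: of all genes 12188 were lower in A and 4781 higher. With TMM scaling 7 of the 12 were lower in A and 5 higher, beside 9871 lower and 7098 higher of all genes. Slc17a6 (1732 and 1439 CPM) and Rbpms (1554 and 1021 CPM), an RNA-binding protein of ganglion cells, were higher in A, as Jam2 was.

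Several pericyte genes, like Jam2, were higher in A. Of the 7 mural cell markers 5 were higher in A by CPM and 4 were called so, beside 10.8% of all genes called higher in A. With TMM scaling 6 were higher in A and 5 called so, beside 16.4% of all genes. The 7 markers summed to 585 CPM in A against 183 in B. Rgs5 stood at 342 CPM in A and 82.4 in B, Pdgfrb at 51.9 and 10.3, and Kcnj8 at 9.98 and 2.76. By CPM Cspg4 (11.1 in A and 14.5 in B) and Notch3 (2.40 and 4.58) were lower in A, though not called. Most of each sum came from Rgs5 and Abcc9 (165 CPM in A and 66.6 in B). The summed mural level was 402 CPM higher in A, and Jam2 was 1141 CPM higher. The part of these cells in the Jam2 difference was not tested. In bulk samples a change in the number of such cells cannot be told apart from a change in RNA per cell.

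**Figure D3:**
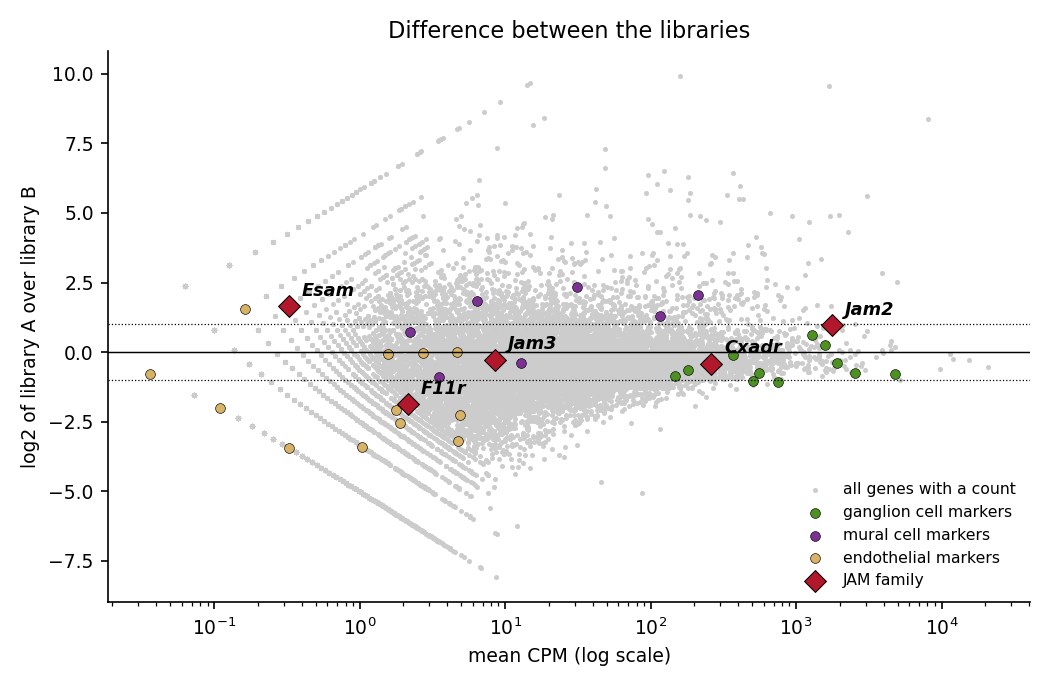
Log2 ratio of library A over library B against mean CPM (log axis) for all genes with a count (grey), with the 5 family genes as red diamonds and markers of ganglion cells (green), mural cells (purple) and endothelium (yellow). Jam2 lies at 0.96, just under the 2-fold line (dotted), above most ganglion cell markers of similar level, whereas F11r lies at -1.87.

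The ganglion cell class of the sort was checked against markers. They mark ganglion cells as a class, so the J-RGC type within it was not checked. All 12 ganglion cell markers were detected and above 100 CPM in both libraries, their median being 451 CPM in A and 853 in B, against 0.758 and 1.89 CPM over all genes. Nefl, the light neurofilament, was highest at 1425 ± 532 CPM per kb (SD, n = 2). Per kb, 4 of the 12 had a higher mean than Jam2, Nefl among them. The rest were Nefm at 436 ± 156, Stmn2 at 339 ± 62.8 and Slc17a6 at 294 ± 38.4 CPM per kb. Nefm, Stmn2 and Slc17a6 did not differ from Jam2, at 293 ± 134 CPM per kb, beyond the spread.

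Esam and most endothelial genes were low in both libraries. By CPM Esam was higher in A, on 4 counts there and 2 in B, and the summed endothelial markers were higher in B. Of 14 endothelial markers 4 were detected, or 28.6%, beside 46.8% of all genes, and all 14 summed to 12.9 CPM in A and 35.1 in B. Cdh5 (VE-cadherin) stood at 0.884 CPM in A and 8.66 in B, Pecam1 at 0.632 and 2.91, and Cldn5, the endothelial claudin, at 0 and 0.0728 CPM. By mean CPM the highest were Tek, the angiopoietin receptor, at 1.64 CPM in A and 8.22 in B, and Cdh5. In A alone Kdr was the highest, at 4.67 CPM. Erg and Ly6c1 had 0 counts in both libraries. Of the 8 endothelial markers tested between the libraries 5 were called lower in A, beside 33.4% of all genes, and with TMM scaling 5 again, beside 22.3%. The other 3 were nearly equal by CPM, among them Kdr at 4.67 CPM in A and 4.73 in B. None of the 5 platelet markers was detected: Itga2b had 0 and 4 counts, Gp1ba 0 and 24, and Gp9 0 in both. They summed to 0.253 CPM in A and 2.04 in B. Of the 6 pigment epithelium markers, a tight-junction epithelium, 1 was detected (2 with TMM scaling), Tyr at 1.52 CPM in A and 2.62 in B, with Best1 at 0.884 and 2.33. Rpe65 and Tyrp1 had 0 counts in both libraries, and all 6 summed to 2.40 CPM in A and 7.06 in B. The part of such cells in the few F11r and Esam reads was not tested.

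Markers of some other retinal cells were read as well, and 46.8% of all genes were detected by the same rule. Microglia markers, of which 8 of 10 were detected, summed to 316 CPM in A and 394 CPM in B, with P2ry12 at 85.4 and 85.3 CPM, Csf1r at 80.1 and 87.2, and Ctss at 56.0 and 87.7. Of 9 Müller glia markers 5 were detected, or 55.6%, which is near the share of all genes. Dkk3 stood at 317 and 223 CPM, Glul at 87.0 and 129, Vim at 75.9 and 38.7, and Rlbp1 at 0 and 1.60. The 9 Müller glia markers summed to 519 CPM in A and 445 CPM in B. None of 4 astrocyte markers was detected, Gfap standing at 0 and 1.09 CPM. Amacrine markers summed to 126 CPM in A and 108 CPM in B, with Gad2 the highest at 58.4 and 56.8 CPM. Gad1 stood at only 1.01 and 4.80 CPM, and Slc6a9 at 0.758 and 4.44. Of the amacrine markers 4 of 7 were detected, or 57.1%, also near the share of all genes. Which of these cells gave Jam3 or F11r reads was not tested.

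The other genes of the pathway were taken from 6 lists with 61 genes. Of these 41 were detected, beside 46.8% of all genes, and 9 had more than 100 CPM in A and in B, beside 6.53%. The same shares of all genes apply to each list below. None had a mean per kb above that of Jam2, and 3 were above Cxadr: Cask, Cdc42 and Rap1a. Between the libraries 18 of 49 tested were called, or 36.7%, near the 44.3% of all genes. Of these 3 were higher in A and 15 lower, and with TMM scaling 5 were higher and 10 lower, beside 38.7% of all genes called.

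Among integrins and their partners 7 of 9 genes were detected. Both chains of the integrin linked to JAM-B were present, Itga4 at 104 CPM in A and 66.2 in B and Itgb1 at 87.3 and 76.0. Of the leukocyte integrins that bind JAM-A and JAM-C, Itgam stood at 33.5 and 47.5 CPM and Itgal at 9.35 and 8.37, but their common beta chain Itgb2 at 0.379 and 2.47, which was under the detection limit in A. Itgam is also a microglia gene. Per length, Itgb1 was highest at 20.0 ± 1.95 CPM per kb, followed by Itgam at 8.06 ± 1.98 and Itga4 at 6.09 ± 1.92 CPM per kb (SD, n = 2 each).

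Of the PDZ scaffolds 13 of 14 were detected, 6 of them above 100 CPM in A and in B, their median being 62.4 CPM in A and 84.7 in B. Cask, a membrane-associated kinase-like scaffold of synapses and junctions, led with 1223 CPM in A and 838 in B. Magi1 stood at 152 and 257 CPM, Tjp1 (ZO-1) at 103 and 194, and Mllt4 (afadin, the actin-linking scaffold) at 156 and 198. Lnx1, a ubiquitin ligase that binds Cxadr, was at 44.5 and 29.5 CPM and Mpdz at 23.7 and 21.5. Tjp3, the ZO protein of epithelia, was the member not detected, at 0 and 0.291 CPM.

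Of the Par polarity complex, which the JAM tail recruits through Par-3, 7 of 8 genes were detected. The GTPase Cdc42 stood at 235 CPM in A and 364 CPM in B, and the atypical protein kinase C genes Prkci (73.4 and 78.9) and Prkcz (55.7 and 53.3) were nearly equal in the libraries. Pard3 itself was at 8.08 and 34.3 CPM, and was called lower in A, at 0.236-fold. All 8 Rap signalling genes were detected, with Rap1a at 163 and 171 CPM, Rap2c at 63.8 and 101, and Rap2a at 81.7 and 95.7.

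Most genes that build epithelial tight junctions were not detected. Of 15 claudin, occludin and cingulin genes 4 were detected, or 26.7%, beside 46.8% of all genes. None exceeded 100 CPM, and their median was 0.253 CPM in A and 0.655 in B. Ocln, occludin itself, stood at 0 and 0.655 CPM. Per kb the highest were Cldn12, with 22.4 CPM in A and 48.2 in B, Marveld2 (tricellulin), with 2.15 and 5.68, and Cgn (cingulin), with 0.758 and 5.82, which was under the detection limit in A. By CPM Cgnl1, at 2.53 and 4.58, stood above Cgn. Cldn1, Cldn2 and Cldn3 had 0 counts in both libraries, which allows 0.379 CPM in A and 0.218 CPM in B. Of 7 further relatives of the CTX group 2 were detected: Clmp, a close relative of Cxadr, at 38.7 and 64.8 CPM, and Igsf11, a synaptic adhesion molecule, at 18.7 and 21.5. Vsig2 followed at 0.126 and 1.16 CPM, and Igsf5, Vsig1 and Gpa33 had 0 counts. Per kb as by CPM, Clmp and Igsf11 stood above Jam3, F11r and Esam in both libraries.

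**Figure D4:**
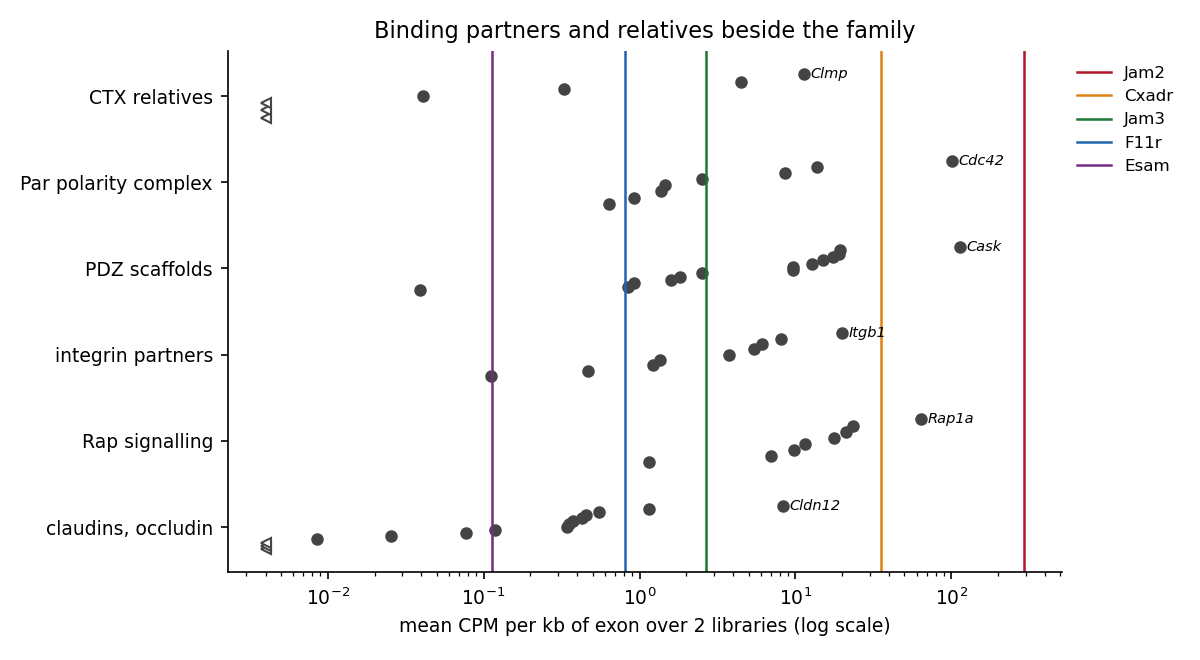
Mean CPM per kb of exon over 2 libraries (log axis) for the genes of 6 lists (rows, each point a gene, open triangles at the left edge for genes with 0 counts), with vertical lines for the 5 family genes. No point lies right of Jam2, 3 points (Cdc42, Cask and Rap1a) lie right of Cxadr, and most claudin and occludin genes lie left of Jam3.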

How the data were processed

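RNA of sorted J-RGCs was sequenced in single-end reads from 2 libraries. Raw read counts by gene symbol were deposited by the authors for each library. Trimmomatic 0.32, TopHat2 2.0.10 and HTSeq 0.6.1, with mm9 as the build, are named in the submitters' processing notes. The sources used here give no settings, annotation or use of strand. Summary lines were left out of the totals, which were 7916204 gene counts in A and 13744313 in B. Genes took 26.8% of the file's reads in A and 30.9% in B, and ambiguous reads 0.313% and 0.357%.

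From the counts, CPM and CPM per kb were computed. Exon lengths came from GENCODE M21, on another build than mm9, so no coordinates are given, and 23636 of 24015 symbols had a length. Ratios used a pseudocount of 0.5 counts. Dispersions came from an intercept-only fit of edgeR 4.0.16 in R 4.3.3 over 11272 genes (coefficient of variation 0.507). The libraries are separate litters, and with 1 group no contrast for the quasi-likelihood test exists. DESeq2 1.42.0 gave alternative size factors and dispersions. Python 3.11.15 with scipy 1.17.1 did the rest. The binomial test was tried on simulated Poisson counts, which lack the spread between libraries seen here. The ratio interval was tried on counts simulated with the same dispersions it uses. Genes under a count minimum, Esam among them, were left out of that simulation. Named genes were the members, the 3 highest of each pathway list, its genes at 0, direct binding partners, markers from among the first 3 and the highest of each type, the 5 genes nearest to Jam2 and the neighbours. Members and lists were chosen with earlier results of these data known. Genes named outside that rule (Tjp3, Ocln, Cgnl1, Pou4f2, Nefm, Stmn2, Kdr, Erg, Ly6c1, Tyrp1, Abcc9, Cspg4, Notch3) were chosen after their values were seen. One marker list is not reported here.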

Additional observations from a re-analysis of the deposited data

How the results depend on the processing

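The 4 ratios of Jam2 to the other members and those of Cxadr to Jam3, F11r and Esam kept their direction and their side of the threshold under each alternative tried: length by longest transcript or coding sequence or none, other dispersions, a pseudocount of 1, and without either library. The log2 ratio of F11r over Jam3, -1.98, no longer excluded 0 with the dispersion of a fit without the expression filter or with DESeq2's dispersion, and was -1.18 without library A and -2.77 without library B, the first of which also held 0. F11r over Esam, 2.60, was no longer separated with those dispersions either, and was 0.84 without library B, which held 0, and 4.35 without library A. Jam3 over Esam, 4.58, was no longer separated with DESeq2's dispersion. These alternatives keep the ratio and widen its interval; a library left out also moves it. The count of separated pairs stayed within 1.5 times of 10. The count of members that differed between the libraries was 2 with TMM scaling and 2 with DESeq2 size factors (Jam2 added, at 1.41 and 1.44). It was 3 with no fold limit (Jam2 and Cxadr added) and 0 with edgeR's exact test, whose dispersion came from these same libraries. The mean level of Jam2 moved by less than its SD under other scalings, and the count of detected members was 4, with F11r added, with TMM scaling, DESeq2 size factors, a limit of 0.5 CPM and without library A, and 3 otherwise. No paired analysis was possible because there is 1 group. Depth limits F11r and Esam, with 7 and 4 counts in A and 47 and 2 in B.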
